A study of Mus musculus with 2 samples.

Results

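The genes described here encode the enzymes that write and erase methyl and acetyl groups on histones, read from mRNA-seq of jejunal smooth muscle. Members were chosen by gene symbol: symbols beginning with Kdm, Kmt2, Kat, Setd, Setdb, Hdac, Sirt, Prmt, Suv39h, Suv420h or Ehmt and a digit, together with *Ezh1*, *Ezh2*, *Eed*, *Suz12*, *Ep300*, *Crebbp*, *Nsd1*, *Whsc1* and *Dot1l*, without *Kdm5d*. This gave 81 of the 18159 gene symbols in the table. The study compared mice that lack the maintenance DNA methyltransferase *Dnmt1* in smooth muscle cells with mice that keep it.

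The *Dnmt1*-KO library and the *Dnmt1*-WT library both came from the tunica muscularis, the muscle wall peeled from the mucosa, of jejunum at 15 days of age on a C57BL/6 background. Both libraries carry the smMHC Cre-eGFP transgene, which expresses Cre recombinase and eGFP from the *Myh11* promoter, so that deletion of the floxed *Dnmt1* alleles is limited to cells that have used this promoter. The strain field of both samples names the Tg(Myh11-cre,-EGFP)2Mik transgene, and Dnmt1lox/lox is given there for both. The paper, however, names its *Dnmt1*-WT mice as smMHC Cre-eGFP/+, with no floxed allele in that name. The strain field therefore does not separate the genotypes. Cells that never used the promoter keep *Dnmt1*. The methods name 2 males and 2 females (4 mice) per genotype and do not say whether their RNA was pooled. The files hold 1 library per genotype, so no difference below has a replicate check and none was tested. The free-text description of both samples names the knockout genotype, whereas title and genotype fields separate a WT from a KO sample, and these were followed. Values are FPKM (sequenced fragments per length of transcript, relative to what was mapped in that library), in which levels of different genes can be set side by side because length has been divided out. The deposited table gives no read counts per gene, so no counting error is attached to the values. The study lists mapped reads for each library, fewer for *Dnmt1*-KO than for *Dnmt1*-WT.

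Histone tails carry small chemical groups that alter how tightly DNA is packed and which proteins bind it. Methyltransferases with a SET domain place methyl groups on lysines (H3K4 and H3K36 at active genes, H3K9 and H3K27 at silent ones), and demethylases of the amine oxidase and JmjC families remove them. Acetyltransferases open chromatin by neutralizing lysines, and deacetylases of several classes reverse this. These marks meet DNA methylation at several points: H3K9 methylation and UHRF1 help to place it, and unmethylated CpG islands attract H3K4 methyltransferases.

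*Dnmt1*, the targeted gene, was measured at 11.58 FPKM with *Dnmt1* intact and at 7.58 FPKM after its deletion (ratio 0.655). Markers of smooth muscle were abundant, as the tissue label states: *Acta2* (smooth muscle actin) was at 5408 and 4016 FPKM. All 8 smooth muscle markers were nevertheless lower in the *Dnmt1*-KO library, their summed level going from 16755 to 12124 FPKM, with *Smtn* (395 and 169 FPKM), *Lmod1* (166 and 80.4 FPKM) and *Myh11* (2685 and 1256 FPKM) the lowest in ratio. Markers of other cells were higher. The summed level of 8 leukocyte and macrophage markers was 86.5 and 304 FPKM, with 8 of 8 higher. That of 8 epithelial markers was 81.3 and 207 FPKM, with 6 of 8 higher, the stem cell marker *Lgr5* at 0.18 in both and *Krt20* lower. Over 6 adipocyte markers the sums were 108 and 1166 FPKM, of which *Lep* was listed at 0 in *Dnmt1*-WT and the other 5 were at 8.43-fold or more. The adipokines *Retn* (0.29 and 38.62 FPKM), *Cfd* (2.61 and 182.62 FPKM) and *Adipoq* (0.85 and 46.71 FPKM) and the lipid droplet protein gene *Plin1* (0.33 and 23.34 FPKM) had the highest ratios of all markers examined. The 8 genes of dividing cells were also all higher, 87.4 and 150 FPKM in sum, and 5 of 6 enteric neuron markers were higher, at 393 and 468 FPKM. Because the tissue is mixed, fewer cells of a type and less RNA per cell cannot be told apart in any value below, and the part that cell composition has in the values was not tested.

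All 81 genes were above 0 FPKM in both libraries. As a group they were lower in the *Dnmt1*-KO library: 58 were lower and 23 (28.4%) were higher, beside 50.3% of the 16102 genes above 0 in both libraries that were higher. Of the members at 1 FPKM or more in both libraries, 22 of 79 were higher, beside 47.1% of all 12758 such genes. The median log2 ratio, on the scale of FPKM + 0.1 that is used throughout for log2 values, was -0.20 over the 80 members that reached 1 FPKM in either library and -0.01 over the 13865 genes so filtered. Summed over the members, the level was 1181 FPKM in *Dnmt1*-WT and 996 FPKM in *Dnmt1*-KO, a ratio of 0.843.

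The differences were mostly small. A ratio of 2 or more was found for 1 member, *Suv39h2*, beside 11.8% of all genes above 0 in both libraries and 5.53% of genes at 1 FPKM or more in both. A ratio of 0.5 or less was found for 3 members, *Hdac9*, *Kdm1b* and *Setd7*, beside 4.98% and 2.82% of all genes, so this share (3.70%) lay near the background. At the smaller fold of 1.5, 3 members were higher, beside 19.7% and 12.4% of all genes. By the same fold 14 members (17.3%) were at 1/1.5 or less, beside 12.6% and 10.5% of all genes. Members with ratios of 1.5 or more were thus scarcer than among all genes. The share at 1/1.5 or less depended on the setting. With centring on transcript length (each gene set against the median of all genes in its length class) it was 8 members (9.88%), beside 11.2% of all genes. With centring in classes of expression it was 9 members (11.1%), beside 11.8% of all genes, and with 1 FPKM added 9 members, beside 6.95% of all genes. With GC centring it was 10 members (12.3%), beside 10.6%, and after division by the FPKM sum 20 members (24.7%), beside 16.6%.

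The order of levels was similar in both libraries, with a Spearman correlation of 0.92 over the 81 members, beside 0.95 over all genes above 0 in both. These genes share the same libraries and the correlations are descriptions. The most abundant member in both was *Sirt2*, a deacetylase that is largely cytoplasmic and acts on tubulin, at 56.2 and 54.6 FPKM. *Setd7* followed in *Dnmt1*-WT at 51.3 FPKM and ranked 10 in *Dnmt1*-KO at 24.4 FPKM. *Hdac2* (49.8 and 33.9 FPKM), *Prmt1* (41.5 and 38.8 FPKM) and *Setd3* (41.4 and 34.98 FPKM), which methylates a histidine of actin, complete the 5 most abundant by mean level. The least abundant were *Kdm4d* (0.10 and 0.08 FPKM), *Suv39h2*, *Kdm8*, *Setdb2* (1.99 and 1.87 FPKM) and *Hdac8*. Split into 3 groups of 27 by mean level, 20 of the most abundant, 21 of the middle and 17 of the least abundant members were lower in *Dnmt1*-KO.

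**Figure D1:**
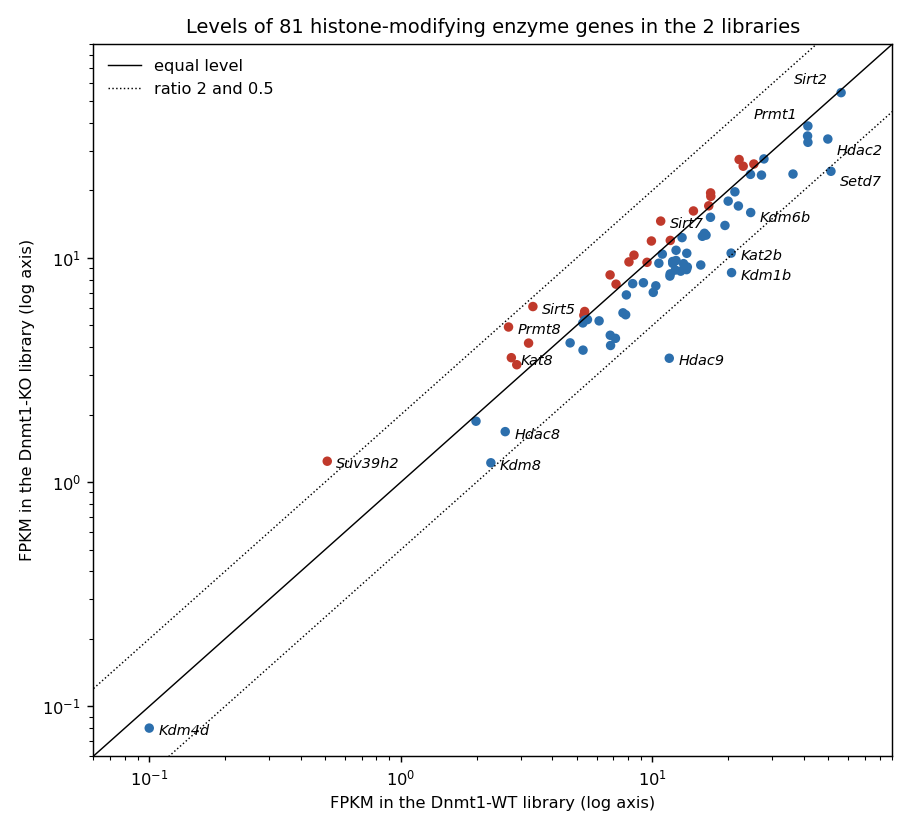
Level of each of the 81 genes in the *Dnmt1*-WT library (x axis, FPKM, log scale) and the *Dnmt1*-KO library (y axis, FPKM, log scale), 1 point per gene, red where higher and blue where lower in *Dnmt1*-KO. The solid line marks equal levels and the dotted lines ratios of 2 and 0.5; *Hdac9*, *Kdm1b* and *Setd7* lie under the lower dotted line and *Suv39h2* lies above the upper one.

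The 3 members with the lowest ratios belong to different families. *Hdac9*, a class IIa deacetylase that binds and represses MEF2 transcription factors in muscle, was at 11.67 FPKM in *Dnmt1*-WT and 3.57 FPKM in *Dnmt1*-KO (ratio 0.306, log2 -1.68), and moved from rank 44 to rank 75 of the 81. *Kdm1b*, a flavin-dependent H3K4 demethylase that oocytes need to set maternal DNA methylation imprints, was at 20.64 and 8.60 FPKM (ratio 0.417, log2 -1.25). *Setd7*, a monomethyltransferase of H3K4 and of many non-histone proteins, was at 51.26 and 24.35 FPKM (ratio 0.475, log2 -1.07). Just outside the 0.5 limit was *Kat2b*, the acetyltransferase also called PCAF, at 20.56 and 10.51 FPKM (ratio 0.511, log2 -0.96). In *Dnmt1*-WT the last 3 of these were each above 20 FPKM, among the 18 most abundant members.

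At the other end, *Suv39h2*, which trimethylates H3K9 in heterochromatin, was at 0.51 FPKM in *Dnmt1*-WT and 1.24 FPKM in *Dnmt1*-KO (ratio 2.43, log2 1.14). Its level was under 1 FPKM in *Dnmt1*-WT, and with 1 added to both FPKM values its log2 ratio was 0.57. *Prmt8*, a membrane-anchored arginine methyltransferase best known from brain, was at 2.68 and 4.92 FPKM (ratio 1.84). *Sirt5*, a mitochondrial sirtuin that removes succinyl groups, was at 3.35 and 6.07 FPKM (ratio 1.81). In *Dnmt1*-WT these 3 members were each lower in level than the 4 with the lowest ratios.

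Starts of these genes differ in their content of CpG, the dinucleotide on which DNMT1 acts, and those of the lowest and the highest member are shown for that reason with that of *Kdm1b*. Sequences are from RefSeq, build GRCm38.p6, 5′ to 3′ on the strand of the gene, upstream of the annotated start, without annotated exon bases, and capitals mark CpG. *Hdac9* has 2 annotated starts in the table, at chr12:34528890-34529139 and chr12:34917096-34917345 (both minus strand). *Kdm1b* is shown at chr13:47043344-47043498 (plus strand) and *Suv39h2* at chr2:3475032-3475236 (minus strand).
Hdac9 window 1: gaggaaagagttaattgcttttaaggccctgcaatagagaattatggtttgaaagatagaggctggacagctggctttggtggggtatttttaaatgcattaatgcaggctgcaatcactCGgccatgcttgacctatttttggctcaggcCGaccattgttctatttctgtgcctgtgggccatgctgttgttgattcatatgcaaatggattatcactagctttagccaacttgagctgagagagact
Hdac9 window 2: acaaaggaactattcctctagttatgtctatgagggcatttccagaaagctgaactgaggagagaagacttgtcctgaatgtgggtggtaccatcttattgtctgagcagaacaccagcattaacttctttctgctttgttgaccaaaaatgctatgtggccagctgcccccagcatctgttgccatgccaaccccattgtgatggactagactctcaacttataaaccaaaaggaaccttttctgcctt
Kdm1b: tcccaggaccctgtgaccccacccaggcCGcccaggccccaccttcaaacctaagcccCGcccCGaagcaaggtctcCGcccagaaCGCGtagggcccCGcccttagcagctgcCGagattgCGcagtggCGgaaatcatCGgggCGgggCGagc
Suv39h2: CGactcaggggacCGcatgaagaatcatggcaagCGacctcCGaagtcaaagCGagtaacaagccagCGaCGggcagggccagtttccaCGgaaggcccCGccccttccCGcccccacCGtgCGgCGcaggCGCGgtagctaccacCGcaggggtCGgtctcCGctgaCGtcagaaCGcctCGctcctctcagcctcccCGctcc
The *Hdac9* stretches hold 2 and 0 CpG in 250 bases each, the *Kdm1b* stretch 13 in 155 bases and the *Suv39h2* stretch 22 in 205 bases. The most different ratios of the group, 0.306 and 2.43, belong to a CpG-poor and a CpG-rich start, and *Kdm1b*, with a ratio of 0.417, has a CpG-rich one. These genes were picked by their ratios, and a link between CpG content and ratio was not tested.

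Over all members, CpG-rich starts prevailed. A window of 300 bases, 250 before and 50 after the start, was given for 67 of the 81 members. Of the 90 windows of members, 80 had their last 30 bases found in a transcript of the gene, so not every start was matched. The observed over expected CpG ratio (CpG count times window length over the product of C and G counts, highest over the windows of a gene) had a median of 0.861, beside 0.721 over the 13892 genes of the table with a window and 0.792 over the 9982 of them at 1 FPKM or more in both libraries. It was 0.6 or more in 62 members (92.5%), beside 63.1% and 76.8%. The 5 members under 0.6 were *Setd5* (0.086), *Hdac9* (0.205), *Hdac8* (0.332), *Sirt5* (0.520) and *Kat8* (0.582), which had FPKM ratios on both sides of 1. *Setd5*, the most CpG-poor, had an FPKM ratio of 0.927. *Setd7* (0.725) and *Kat2b* (0.672), with FPKM ratios of 0.475 and 0.511, were above 0.6. The CArG box, the sequence bound by serum response factor (SRF), was searched on both strands and matched in the window of 1 member, *Kdm5c* (1.49%, beside 1.66% of all genes). TATAAA on either strand matched in 3 members, *Hdac9*, *Hdac8* and *Prmt2* (4.48%, beside 10.6% of all genes). These matches describe the letters in the windows and no binding was measured.

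Among lysine methyltransferases, those for H3K4 were lower by the most in summed level: from 143 to 98.2 FPKM over 8 genes. Of these 6 were lower, beside 49.1% of all genes above 0 in both libraries, and the median log2 ratio was -0.43. *Setd7* carried most of the difference in summed level: without it the other 7 went from 91.3 to 73.8 FPKM (ratio 0.809). Their median was -0.36. With length centring the median was -0.18 over the 8 genes and -0.12 over these 7, of which 4 were then below 0. Beside *Setd7*, *Kmt2a* (MLL1) was at 13.77 and 9.11 FPKM (ratio 0.662). *Kmt2c*, which with *Kmt2d* marks enhancers, was at 10.08 and 7.02 FPKM (ratio 0.696). *Kmt2d* itself was at 12.42 and 10.82 FPKM. *Setd1b* was at 11.74 and 8.30 FPKM (ratio 0.707), whereas its relative *Setd1a*, at 11.78 FPKM like *Setd1b* in *Dnmt1*-WT, was at 11.97 FPKM in *Dnmt1*-KO, and 51.8% of the exon bases of *Setd1a* are shared with another annotated gene on its strand. *Kmt2e* was at 21.97 and 17.05 FPKM, and *Kmt2b* was nearly level, at 9.52 and 9.56 FPKM.

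The 3 writers of H3K36 methylation had ratios below 1, although *Whsc1* was above 0 on the log2 scale with length or GC centring: *Setd2*, which adds the last of its methyl groups (13.70 and 10.49 FPKM), and the NSD enzymes *Nsd1* (16.34 and 12.64 FPKM) and *Whsc1* (7.88 and 6.84 FPKM). Their median log2 ratio was -0.37, and -0.12 with length centring. *Dot1l*, the H3K79 methyltransferase, was higher, at 9.91 and 11.90 FPKM (ratio 1.2). Of the H4K20 enzymes, *Suv420h1* was at 13.67 and 8.87 FPKM (ratio 0.649). Its paralog *Suv420h2* (13.12 and 12.32 FPKM) and the monomethyltransferase *Setd8* (24.54 and 23.59 FPKM) differed by less.

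Among writers of silencing marks, the 5 H3K9 methyltransferases beside *Suv39h2* had ratios below 1, although *Ehmt2* was above 0 on the log2 scale in 4 alternative settings and *Setdb2* with GC centring: *Ehmt2* (G9a) was at 27.76 and 27.65 FPKM, its partner *Ehmt1* (GLP) at 12.04 and 9.64 FPKM, and *Setdb1*, which silences endogenous retroviruses, at 9.21 and 7.75 FPKM. *Suv39h1*, at 5.29 and 5.13 FPKM, stayed above *Suv39h2* in both libraries, by 10.4-fold and 4.14-fold. Of the core of Polycomb repressive complex 2 (PRC2), which methylates H3K27, the catalytic subunit *Ezh1* of resting cells was at 12.96 and 8.73 FPKM (ratio 0.674) and *Ezh2*, that of dividing cells, at 5.39 and 5.28 FPKM. The non-catalytic subunits went opposite ways, *Suz12* at 10.32 and 7.51 FPKM and *Eed* at 8.07 and 9.60 FPKM.

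The other SET-domain proteins had *Setd6* (6.79 and 8.40 FPKM) and *Setd4* (2.89 and 3.34 FPKM) higher and *Setd3* and *Setd5* (21.28 and 19.72 FPKM) lower. Arginine methyltransferases were nearly level as a group, 119 and 118 FPKM in sum over 8 genes. Of these 5 were lower (62.5%) and 3 higher, beside 49.1% of all genes above 0 in both libraries that were lower. *Prmt1*, the main source of asymmetric dimethylarginine, had a ratio of 0.934, and *Prmt5*, that of symmetric dimethylarginine, was at 27.14 and 23.41 FPKM. Beside *Prmt8*, *Prmt7* (8.45 and 10.29 FPKM) and *Prmt2* (22.96 and 25.65 FPKM) were higher. *Prmt3*, *Prmt6* and *Prmt10* were each lower, by less than 1.5-fold, in *Dnmt1*-KO. *Prmt2* and *Prmt3* changed sides with GC centring, and *Setd5* with length centring.

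Demethylases of the JmjC family, which use iron and 2-oxoglutarate, were the largest role and had 15 of 15 members lower. Of these *Kdm4d*, at 0.10 and 0.08 FPKM, lay near 0, and the other 14 were at 1 FPKM or more in both libraries. The summed level of the role was 166 FPKM in *Dnmt1*-WT and 121 FPKM in *Dnmt1*-KO (ratio 0.731). The median log2 ratio was -0.49, and 6 members were at 1/1.5 or less. Over all genes above 0 in both libraries, 49.1% were lower and 12.6% were at 1/1.5 or less. With length centring 2 of the 15, *Kdm8* and *Kdm2b*, were at 1/1.5 or less, beside 11.2% of all genes. The ratios ran from 0.535 to 0.896, and with length centring *Kdm2a* was above 0. *Kdm8* was at 2.28 and 1.22 FPKM (ratio 0.535). *Kdm2b*, which binds unmethylated CpG islands and brings a Polycomb complex there, was at 15.57 and 9.30 FPKM (ratio 0.597). *Kdm7a*, a demethylase of H3K9 and H3K27, was at 6.82 and 4.07 FPKM (ratio 0.597). The H3K27 demethylases were close together in ratio, *Kdm6a* (UTX) at 7.13 and 4.38 FPKM (0.614) and *Kdm6b* (JMJD3) at 24.59 and 15.94 FPKM (0.648). Among H3K4 demethylases *Kdm5a* was at 6.80 and 4.52 FPKM, *Kdm5b* at 12.42 and 9.74 FPKM and *Kdm5c* at 12.05 and 9.46 FPKM. The remaining 7, *Kdm2a*, *Kdm3a*, *Kdm3b* and *Kdm4a* to *Kdm4d*, which act on H3K9 or H3K36, had ratios between 0.709 and 0.896. *Kdm6a* and *Kdm5c* lie on the X chromosome, where 4 of 5 members were lower, beside 58 of all 81 members (71.6%) and 49.1% of all genes. Another of the 4, *Suv39h1*, was nearly level (ratio 0.970), and X-linked genes outside the members were not counted. The X inactivation transcript *Xist* was at 32.14 and 20.03 FPKM and the Y-linked *Ddx3y*, *Eif2s3y* and *Uty* at 5.96 and 8.58, 8.13 and 7.67, and 1.30 and 1.18 FPKM, and the part of the sexes' share in these values was not tested.

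The amine oxidase demethylases split. *Kdm1a* (LSD1), the H3K4 demethylase of the CoREST complex, was at 14.56 and 16.20 FPKM (ratio 1.11), against 0.417 for *Kdm1b*. *Kdm1b* therefore made up 58.6% of the summed level of the pair in *Dnmt1*-WT and 34.7% in *Dnmt1*-KO. Of the *Kdm1b* exon bases, 9.2% overlap *Dek* on the opposite strand, and the library kit does not mark strand, so that reads there cannot be assigned. Such overlap covers 10% of *Suv39h2* and 8.6% of *Prmt8*, is 0 for *Hdac9* and *Kat2b*, and is above 5% in 14 of the 81 members.

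Acetyltransferases were lower in 6 of 9 members (66.7%), beside 49.1% of all genes above 0 in both libraries. Their sums were 131 and 109 FPKM. Their median log2 ratio was -0.32, and -0.072 with length centring. The general coactivators *Ep300* (19.43 and 13.96 FPKM) and *Crebbp* (16.10 and 12.88 FPKM) were both lower, as were *Kat6a* (15.80 and 12.49 FPKM) and *Kat6b* (11.77 and 8.49 FPKM). *Kat2a* (GCN5), which takes the same place as *Kat2b* in the SAGA complex, was higher, at 17.04 and 19.50 FPKM (ratio 1.14). *Kat2b* accounted for 54.7% of this pair in *Dnmt1*-WT and 35.02% in *Dnmt1*-KO. *Kat8* (MOF), the H4K16 acetyltransferase, was at 2.75 and 3.59 FPKM, and *Kat5* (TIP60) was nearly level at 16.75 and 17.08 FPKM, as was *Kat7* at 10.95 and 10.40 FPKM.

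Deacetylases of class I, which are related to yeast Rpd3, were lower for 3 of 4 genes, beside 49.1% of all genes. Their median log2 ratio was -0.58, and -0.36 with GC centring. *Hdac1* was at 36.22 and 23.67 FPKM (ratio 0.654) and *Hdac2* at 49.82 and 33.91 FPKM (0.681), and these subunits share the NuRD, Sin3 and CoREST complexes. *Hdac8* was at 2.60 and 1.68 FPKM. *Hdac3*, the enzyme of the NCoR and SMRT complexes, was higher, at 22.12 and 27.47 FPKM (ratio 1.24). In class IIa, where *Hdac9* belongs, *Hdac5* was at 41.52 and 32.79 FPKM (ratio 0.790), *Hdac7* at 17.07 and 18.82 FPKM and *Hdac4* at 5.38 and 5.77 FPKM. The share of *Hdac9* in the sum of *Hdac7* and *Hdac9* was 40.6% in *Dnmt1*-WT and 15.9% in *Dnmt1*-KO. Its share of the whole class was smaller: the 4 class IIa genes summed to 75.64 and 60.95 FPKM, with *Hdac5* the most abundant in both libraries.

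The class IIb and IV members were all somewhat higher, *Hdac10* at 3.22 and 4.17 FPKM, *Hdac6*, a tubulin deacetylase, at 7.17 and 7.64 FPKM and *Hdac11* at 25.31 and 26.24 FPKM, although 2 of these 3 were lower once each library was divided by its FPKM sum and 1 was lower after centring on transcript length or on GC content. Sirtuins, the NAD-dependent deacylases, had 4 of 7 lower (57.1%), near the 49.1% of all genes above 0 in both libraries. Their median log2 ratio was -0.04. *Sirt1*, the best studied nuclear member, was at 5.30 and 3.88 FPKM (ratio 0.732) and *Sirt7*, found in the nucleolus, at 10.79 and 14.60 FPKM (ratio 1.35). Of the mitochondrial sirtuins *Sirt5* had a ratio of 1.81, *Sirt3* was at 10.61 and 9.47 FPKM and *Sirt4* at 5.34 and 5.55 FPKM. *Sirt6*, a nuclear member, was at 8.35 and 7.68 FPKM.

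**Figure D2:**
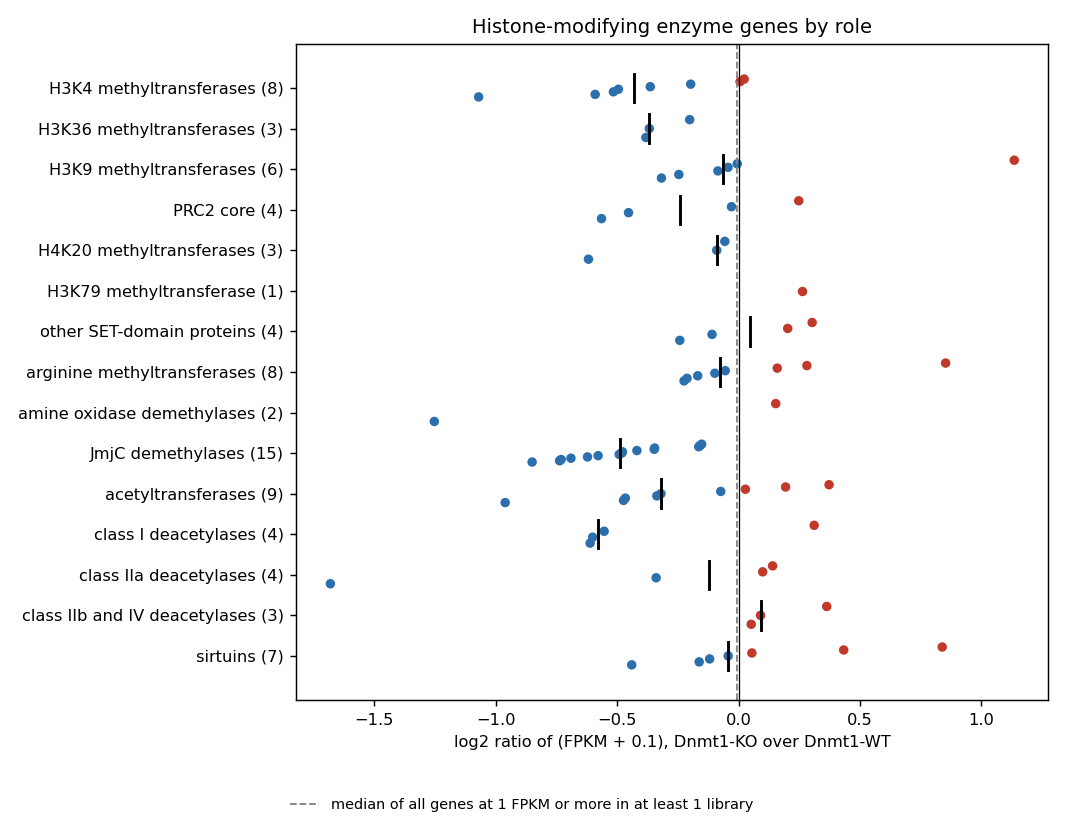
log2 ratio of FPKM + 0.1, *Dnmt1*-KO over *Dnmt1*-WT (x axis), for each of the 81 genes (points) by role (y axis, number of genes in parentheses), red above 0 and blue below. Black bars are medians of roles with 3 or more genes and the dashed line is the median of all genes (-0.01); the 15 JmjC demethylases all lie below 0.

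Related genes were compared in pairs that were picked by hand, so the counts below depend on the pairing. Of 23 pairs of relatives, 13 had both genes below a ratio of 1, 9 had the genes on either side of 1 and 1 (*Hdac6* and *Hdac10*) had both above. In 4 of the 9 the gene above 1 (*Kmt2b*, *Setd1a*, *Hdac4* or *Hdac7*) was below 1 in at least 1 alternative setting. A gene also changed sides in 5 of the 13 pairs and in the pair of *Hdac6* and *Hdac10*. In 7 pairs the ratios differed by 1.5-fold or more. The widest were *Hdac7* over *Hdac9* (3.60), *Kdm1a* over *Kdm1b* (2.67), *Suv39h2* over *Suv39h1* (2.51) and *Kat2a* over *Kat2b* (2.24). *Hdac9* was paired with *Hdac7* alone, and the other class IIa genes *Hdac5* and *Hdac4* had ratios of 0.790 and 1.07. In *Dnmt1*-WT *Kdm1b* was 1.42-fold and *Kat2b* 1.21-fold above its relative, and in *Dnmt1*-KO the order was the reverse, with *Kdm1a* 1.88-fold above *Kdm1b* and *Kat2a* 1.86-fold above *Kat2b*. Closest in ratio were *Hdac1* and *Hdac2*, *Kdm3a* and *Kdm3b*, and *Kdm6a* and *Kdm6b*, which differed by 1.06-fold or less.

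**Figure D3:**
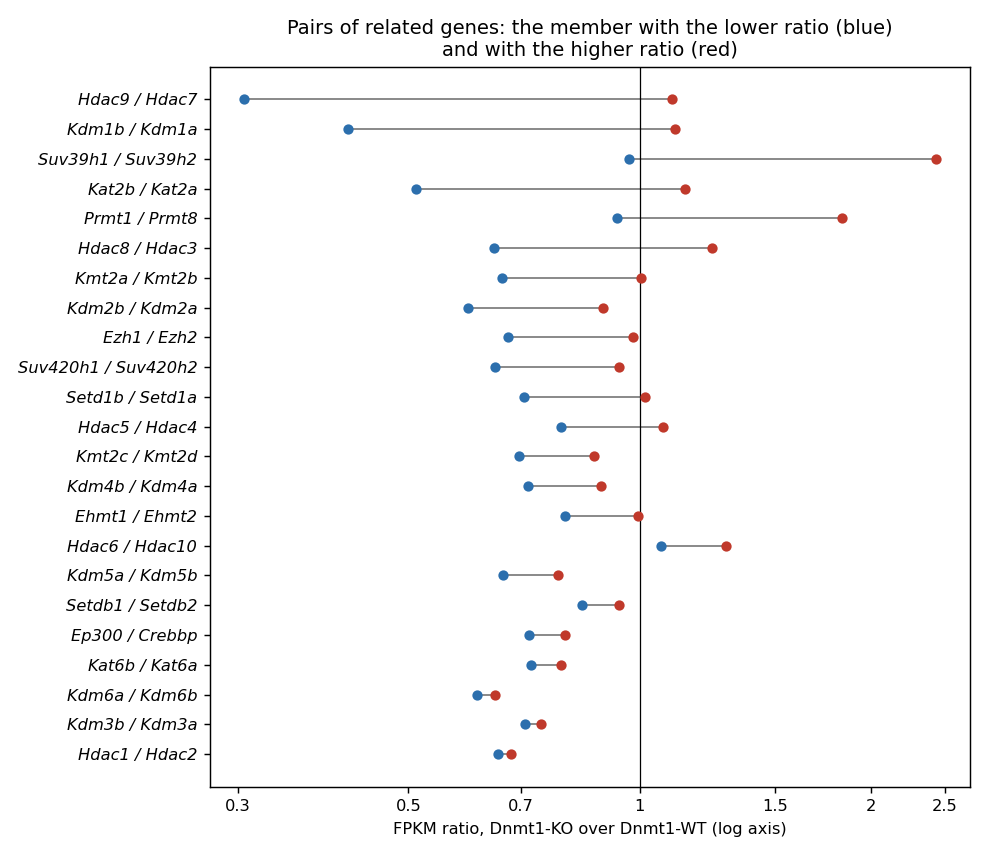
FPKM ratio, *Dnmt1*-KO over *Dnmt1*-WT (x axis, log scale), of both genes of each of 23 pairs of relatives (y axis), with the lower ratio in blue and the higher in red, joined by a line. Lines cross the ratio of 1 in 9 pairs and are longest for *Hdac9* with *Hdac7* (0.306 and 1.10) and *Kdm1b* with *Kdm1a* (0.417 and 1.11).

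Genes listed under the same activities, with symbols outside the rule, were described by the same values. Of 23 such genes, 18 were lower and 5 higher, beside 49.1% of all genes above 0 in both libraries that were lower. Their median log2 ratio was -0.30, and -0.12 with length centring. The 7 listed as demethylases were all lower, from *Jmjd1c* (12.64 and 8.87 FPKM) to *Jmjd6* (20.67 and 18.99 FPKM), or 6 with GC centring. The lowest ratios were those of the coactivator acetyltransferase *Ncoa2* (11.96 and 7.30 FPKM), *Clock* (10.84 and 6.82 FPKM), *Jmjd1c* and *Ncoa1* (11.55 and 8.11 FPKM). *Smyd2*, a methyltransferase of lysines in histones and p53, was the highest, at 26.18 and 40.51 FPKM (ratio 1.55). The next ratios among genes at 1 FPKM or more were those of *Smyd5* (3.86 and 4.33 FPKM), *Smyd4* (1.17 and 1.25 FPKM) and *Hat1* (10.57 and 10.70 FPKM), which were near 1.

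Subunits that carry these enzymes and proteins that read their marks had a similar direction, with 52 of 71 lower, beside 49.1% of all genes, and a median log2 ratio of -0.18. With length centring 41 of 71 were below 0, beside 47.2% of all genes with a ratio below 1 in that setting, and the median was -0.11. The lowest ratios were in the Polycomb subunits *Phc3* (14.72 and 8.31 FPKM) and *Cbx7* (11.99 and 7.15 FPKM), the NuRD helicase *Chd3* (75.64 and 44.65 FPKM) and *Ing3* (4.63 and 2.86 FPKM). Of PRC2 accessory subunits 6 of 7 were lower, among them *Jarid2* (10.68 and 6.77 FPKM), or 5 with length or GC centring. Of 14 readers 13 were lower, or 9 with length centring. Other groups were more mixed. Subunits of the other Polycomb complex (PRC1) had 8 of 14 lower. Deacetylase complex subunits had 14 of 20 lower, or 10 with length centring, and proteins linked to DNA methylation 4 of 6, or 3 with length centring. Both counts with length centring were near the 47.2% of all genes. The highest ratios included *Uhrf1*, which brings DNMT1 to newly copied DNA, at 3.62 and 5.78 FPKM (ratio 1.597). *Rcor2* was at 1.33 and 2.10 FPKM, *Zfp57*, which protects imprinted regions, at 4.21 and 5.58 FPKM, and *Pcgf1*, a partner of *Kdm2b*, at 13.44 and 17.21 FPKM. COMPASS subunits, the scaffold of the H3K4 methyltransferases, had 7 of 10 lower, with a median of -0.15, and -0.13 with length centring.

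The ratios also moved with transcript length, and these genes are long: the longest annotated transcript had a median of 4402 bases over the members and 3383 over all genes. Over all genes at 1 FPKM or more in both libraries, the median log2 ratio went from 0.23 in the shortest of 10 length classes to -0.25 in the longest, in which 73.7% of genes were lower. Of the 20 members in that longest class, 18 were lower, with a median of -0.37. The Spearman correlation of the log2 ratio with length was -0.47 over 79 members and -0.29 over 12693 genes. When each gene was set against the median of its length class, 55 of 81 members (67.9%) had a ratio below 1, beside 47.2% of all genes. These were 53 of the 58 that had been lower and 2 others. The median log2 ratio of the members was then -0.11, with the JmjC demethylases at -0.35 (14 of 15 below 0), *Hdac9* at -1.43, *Kdm1b* at -1.14 and *Kat2b* at -0.85. *Setd7* was then at -0.82 and no longer at a ratio of 0.5 or less, which left 2 members there. The H3K4 methyltransferases were then at -0.18. The part of cell composition, RNA quality or library preparation in the length trend was not tested.

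**Figure D4:**
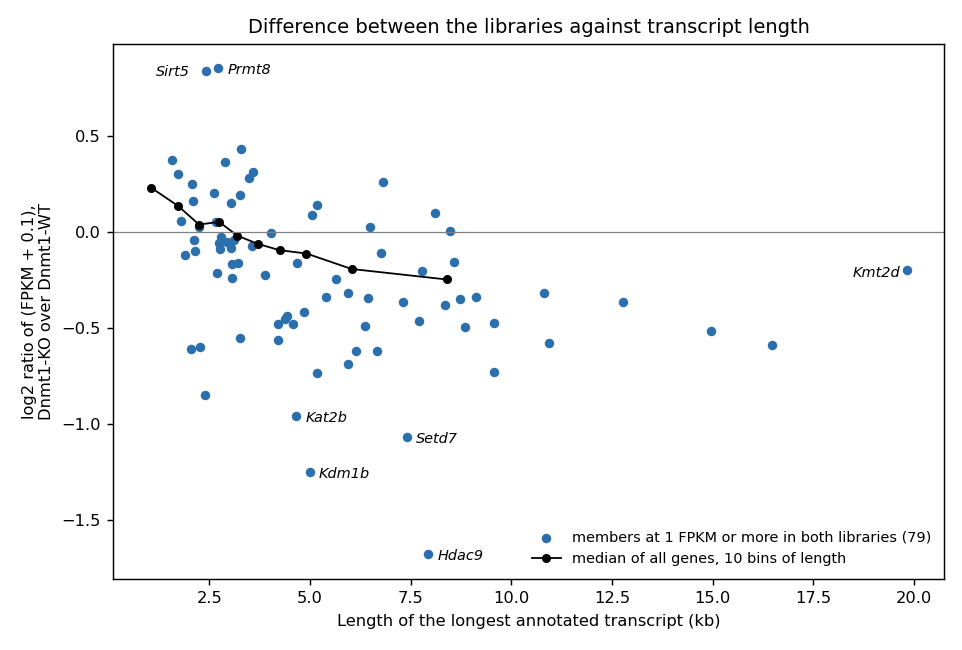
log2 ratio of FPKM + 0.1, *Dnmt1*-KO over *Dnmt1*-WT (y axis), against the length of the longest annotated transcript (x axis, kb) for the 79 members at 1 FPKM or more in both libraries (blue points). Black points joined by a line are the medians of all such genes in 10 classes of length, which run from 0.23 to -0.25; *Hdac9*, *Kdm1b*, *Setd7* and *Kat2b* lie far below that line.

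The table also gives how many transcript variants of each gene were found. Fewer variants were found in *Dnmt1*-KO for 11 members (13.6%), the same number for 61 and more for 9 (11.1%). Over all genes above 0 in both libraries, fewer were found for 13.6% and more for 12.5%, so the members were near the background. Both libraries had a median of 2 variants per member.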

How the data were processed

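Gene values from mRNA-seq of jejunal tunica muscularis were taken from the table the authors deposited, which lists gene symbols with an FPKM value per library, a count of transcript variants per library and a ratio computed by the authors that was left out here. The submitters' processing notes name TopHat 1.4.1, Cufflinks 2.0.2 and build mm10, with no role, and libraries were made with a TruSeq RNA kit that does not mark strand. The deposited table holds no read counts, and the library totals that the study lists were not used, so no counting error was computed. With 1 library per genotype no test was run. Plain ratios, and log2 ratios after adding 0.1 FPKM, were computed with Python 3.11.15, pandas 2.3.3 and numpy 2.4.6, by scripts tested on simulated data. Medians were taken over genes at 1 FPKM or more in at least 1 library. Positions and lengths came from GENCODE M21 (GRCm38), in which 98.9% of symbols and 81 of 81 members were found, 5 of them under newer symbols (*Prmt9*, *Kmt5a*, *Kmt5b*, *Kmt5c* and *Nsd2* for *Prmt10*, *Setd8*, *Suv420h1*, *Suv420h2* and *Whsc1*). Promoter windows came from RefSeq. Any member could be named within its role. Values were given for the 10 highest and 10 lowest ratios, the 5 most and least abundant members, relatives, and the 4 highest and 4 lowest ratios of other lists. Members, roles and lists were chosen with earlier results of these data known. Alternatives were 5 rescalings, other pseudocounts and filters, and centring on transcript length or GC content, the last added after seeing the data.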

Additional observations from a re-analysis of the deposited data

How the results depend on the processing

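No paired analysis was possible because each genotype has 1 library, and leaving out a replicate was not possible for the same reason. The median log2 ratio of the members was between -0.30 (division by the FPKM sum, which shifts all genes by 0.10) and -0.11 (transcript length centring) over 11 alternatives, and the members with a ratio above 1 numbered 17 to 26. Of the 81 members, 64 kept the sign of their log2 ratio in every setting (50 below and 14 above 0), and the 17 that did not had log2 ratios of 0.20 or less in size. These were *Ehmt2*, *Ezh2*, *Hdac11*, *Hdac4*, *Hdac6*, *Hdac7*, *Kat5*, *Kdm2a*, *Kmt2b*, *Kmt2d*, *Prmt2*, *Prmt3*, *Setd1a*, *Setd5*, *Setdb2*, *Sirt4* and *Whsc1*.

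The members with a ratio of 0.5 or less numbered 5 after division by the FPKM sum and 2 with length or GC centring, where *Setd7* was lost. Those at 1/1.5 or less numbered 9 with centring in expression classes, 8 with transcript length centring and 9 with 1 FPKM added. A ratio of 2 or more was held by 0 members with 1 FPKM added, 0 at 1 FPKM or more in both libraries and 0 at 5 FPKM or more in at least 1 library, since *Suv39h2* was low, and a ratio of 1.5 or more by 1 member at 5 FPKM or more. Length centring moved the medians of the H3K4 methyltransferases to -0.18, of the H3K36 methyltransferases to -0.12 and of the acetyltransferases to -0.072, and GC centring that of the class I deacetylases to -0.36. Length and GC centring were chosen after seeing the data. The cause of these moves was not tested beyond the filters themselves. The other 49 counts moved by 1.5-fold or less and the other 150 medians by less than 0.2 on the log2 scale. Counting error was not computed, and it weighs most on values under 1 FPKM.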
